A study of Mus musculus with 3 samples.

Results

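Fcrl1, Fcrla, Fcrl5, Fcmr and Fcgrt are 5 of the 32285 genes counted, and were taken as the rows with these symbols in the count matrices of 3 single-cell libraries. They code for Fc receptor-like proteins of B cells, for the IgM receptor and for the neonatal Fc receptor. Wild-type female BXD2 mice, a recombinant inbred strain prone to lupus-like autoimmunity, were used throughout. R848, which activates TLR7 (a sensor of single-stranded RNA), was injected into the peritoneum of every animal, with 40 µg for each 20 g the mouse weighed. In the group called IL-4+R848, each R848 dose came 2 hours after IL-4 (5 µg) that had been stabilised by binding to an antibody against it (25 µg). In the group called R848, it came 2 hours after the same 25 µg of the antibody alone, so the control was neither untreated nor free of anti-IL-4. Dosing was repeated 2 days later and the spleens were taken 2 days after that, from 3 mice per treatment. Spleen B cells were enriched by removing other cells, stained with hashtag and surface antibodies, and both treatments were mixed in each of the 3 libraries, called sets 1 to 3. No mouse without R848 was in the series, so all values describe cells under a TLR7 stimulus.

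Fc receptors bind the constant part of antibodies and let a cell sense or move the antibody it meets. The Fc receptor-like proteins are relatives that B cells carry mostly at their surface, where motifs in the tail recruit activating or inhibiting signalling enzymes to the B cell receptor. Fcmr is the receptor for the Fc part of IgM on B cells. Fcgrt codes for the heavy chain of the neonatal Fc receptor, which pairs with B2m and returns IgG and albumin from acidic endosomes to the cell surface.

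By GENCODE on GRCm38, Fcrl1 lies at chr3:87376387-87402934 and Fcrl5 at chr3:87435773-87500678, both on the plus strand and near each other. Fcmr lies at chr1:130865669-130880791 on the plus strand, Fcrla at chr1:170917576-170927583 on the minus strand, and Fcgrt at chr7:45092990-45103851 on the minus strand. All 5 are protein-coding. The 250 bases before the RefSeq start site (GRCm38.p6) are shown for Fcmr, Fcrl5 and Fcgrt, the members whose difference between treatments in follicular-like cells passed the test under every alternative tried. They read 5′ to 3′ on the strand of the gene, and capitals mark matches to GGAAGT, a core sequence bound by ETS-family factors, on either strand. Fcmr is at chr1:130865527-130865776, Fcrl5 at chr3:87435532-87435781 and Fcgrt at chr7:45103823-45104072.
Fcmr: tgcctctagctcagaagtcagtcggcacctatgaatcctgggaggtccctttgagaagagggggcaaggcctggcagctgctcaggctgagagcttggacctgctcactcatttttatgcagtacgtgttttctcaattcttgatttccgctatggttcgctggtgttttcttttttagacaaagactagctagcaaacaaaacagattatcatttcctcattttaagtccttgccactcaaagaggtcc
Fcrl5: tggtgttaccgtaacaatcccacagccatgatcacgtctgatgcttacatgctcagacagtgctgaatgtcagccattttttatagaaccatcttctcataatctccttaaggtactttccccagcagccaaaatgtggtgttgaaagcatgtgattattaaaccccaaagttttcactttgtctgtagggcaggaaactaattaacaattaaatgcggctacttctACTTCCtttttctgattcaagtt
Fcgrt: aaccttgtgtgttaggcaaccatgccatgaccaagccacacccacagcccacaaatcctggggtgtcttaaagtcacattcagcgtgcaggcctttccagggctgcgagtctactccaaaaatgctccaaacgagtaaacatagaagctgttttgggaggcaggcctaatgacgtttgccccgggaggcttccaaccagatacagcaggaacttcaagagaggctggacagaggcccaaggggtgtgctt
The Fcrl5 window held 1 match, 23 bases before the start, and the Fcrl1 window held 2, at 28 and 15 bases before it. The windows of Fcrla, Fcmr and Fcgrt held none. Of 32851 RefSeq promoter windows of this length, 19.7% held the sequence at least once. The STAT6 palindrome, TTC and GAA separated by any 4 bases, was in none of the 5 windows and in 5.85% of all of them. A match is a description of letters and was not tested for binding.

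The sets held 14519, 11389 and 14222 barcodes with 107244246, 96866964 and 99522280 gene UMIs, a UMI being 1 counted RNA molecule. Hashtags with names for the control and for IL-4 assigned 7146, 5641 and 7530 cells to R848 and 5125, 4579 and 5081 to IL-4+R848. Barcodes with both hashtags, 8.28% to 10.8% of a set, were left out as doublets of unlike cells, while doublets of cells with the same hashtag remained. Pairs of sets shared 168 to 209 barcode sequences, a small part of each. Median UMIs per cell were 4446 to 5932 under R848 and 5199 to 6995 under IL-4+R848. Clusters of 160 NK cell-like, 78 myeloid and 43 T cell-like cells were not B cells by their genes, and 322 R848 and 398 IL-4 cells of low depth stayed unnamed.

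B cell states were drawn from clusters made without the 5 genes. Follicular-like cells, named for resting recirculating B cells, were the largest class. They made up 44.1% ± 2.41 of R848 cells and 69.1% ± 2.08 of IL-4+R848 cells (SD, n = 3 sets). IL-4 cells and R848 cells of this class lay largely in different clusters. Clusters 0 and 4 held R848 cells (6.55% and 8.53% IL-4 cells), clusters 1 and 5 IL-4 cells (99.7% and 96.2%), and cluster 2 held both (78.1% IL-4 cells). In clusters 1 and 2 only Fcer2a or only Ighd, respectively, of the 8 follicular markers stood over 2-fold above the other states. In the class as a whole all 8 lay above the mean of the other states, with Ighd, Fcer2a and Cd55 over 2-fold. Germinal center-like, plasmablast-like, marginal zone-like, transitional-like and activated-like cells (Egr and Nr4a genes) were the other named states. A cluster led by Zbtb32, a cycling-like group and a Rag1 cluster are called by their genes. The transitional-like state has weak marker support, with 3 of 8 markers above the mean of the other states, and its cells were shallow (median 2596.5 UMIs). Levels are ordered over these 9 states, which leave out the small clusters led by Igll1 (226 cells) and Ifit3 (121 cells) and the unnamed cells. Because states come from RNA clusters, differences between states are given as levels with no test.

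Of the 9 states under R848, Fcmr was highest in follicular-like cells and lowest in plasmablast-like cells, the antibody-secreting state. Levels are CPM, the counts of a gene relative to all gene UMIs of the sum, on TMM-normalised library sizes. Under R848 the sets stood at 1181, 1130 and 1072 CPM in follicular-like cells, a mean of 1128 ± 54.5 (SD, n = 3). Activated-like cells followed at 843 ± 53.6 CPM, transitional-like at 710 ± 61.9 and marginal zone-like at 578 ± 42.0. Each of these lay above the next in every set pair except activated-like and transitional-like, whose ranges touched (781.4 to 877.3 and 670.1 to 781.6 CPM). The Zbtb32 cluster (498 ± 59.7 CPM) overlapped both marginal zone-like cells and cycling-like cells (474 ± 38.6). Germinal center-like cells had 235 ± 38.3 CPM, the Rag1 cluster 166 ± 34.5 and plasmablast-like cells 129 ± 11.6. The neighbours at this low end were also close, with sets of 126.1 to 186.2 CPM in the Rag1 cluster against 117.8 to 140.9 in plasmablast-like cells. The Igll1 cluster, outside these states, was lower still, at 40.37 and 11.2 CPM in the 2 sets with enough R848 cells. R848 cells of unnamed cluster 13, also outside them, had 1484 and 1501 raw CPM, which is CPM without TMM scaling. Those of follicular-like cluster 0 had 1114 to 1272 raw CPM. Cluster 13 was shallow, with a median of 1411 UMIs over both treatments. Under IL-4+R848, activated-like cells (649.4 ± 65.28 CPM) and follicular-like cells (615 ± 31.75) overlapped. The top of the order also depended on the clusters. With clusters made without the genes called between treatments, activated-like cells lay above follicular-like cells under R848 (1005 ± 51.21 and 936 ± 37.7 CPM). They did so under IL-4+R848 as well (761.6 ± 63.95 and 539.3 ± 24.8).

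Fcrl5 marked the marginal zone-like state. This receptor is known from marginal zone and B-1 cells, and it stood at 166.3, 221.8 and 220.9 CPM in marginal zone-like cells under R848. No set of another state reached this range. Activated-like cells (93.9 ± 14.3 CPM), the Zbtb32 cluster (88.6 ± 11.7) and cycling-like cells (67.9 ± 1.07) formed a middle group, in which activated-like cells and the Zbtb32 cluster overlapped. Follicular-like cells had 45.4 ± 6.83 CPM and plasmablast-like cells 17.9 ± 3.32. Germinal center-like (4.25 ± 1.26 CPM), transitional-like (3.60 ± 1.26) and Rag1 cluster cells (1.76 ± 1.71) were lowest and could not be told apart, with 94, 27 and 2 UMIs in all.

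Fcrla, which stays inside the cell in the endoplasmic reticulum and binds antibody there, was highest in the Rag1 cluster. Its sets stood at 664.7, 787.1 and 593.2 CPM there under R848, above all other states. Follicular-like (410 ± 28.1 CPM), marginal zone-like (405 ± 20.0), transitional-like (392 ± 9.30) and Zbtb32 cluster cells (390 ± 45.9) lay within each other's spread. Cycling-like cells (355 ± 32.9 CPM) and plasmablast-like cells (335 ± 35.2) overlapped, while activated-like cells had 219 ± 25.2 and germinal center-like cells 167 ± 3.92. Of the 5 genes, Fcrla had the ratio of these means between follicular-like and plasmablast-like cells that was nearest to 1.

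Fcrl1, a surface protein with activating tail motifs, was high in marginal zone-like and follicular-like cells. It stood at 144 ± 3.09 CPM in marginal zone-like and 137 ± 8.47 in follicular-like cells, which overlapped, and at 114 ± 5.80 in activated-like cells. Transitional-like cells had 85.03 ± 8.62 CPM and cycling-like cells 79.0 ± 3.82, again overlapping. Germinal center-like cells (55.5 ± 2.45 CPM) and the Zbtb32 cluster (55.1 ± 3.83) did not differ beyond their spread. Plasmablast-like cells (29.5 ± 1.06 CPM) and the Rag1 cluster (26.1 ± 17.2) were lowest of the 9 states, and the Igll1 cluster lay below them at 2.019 and 2.799 CPM.

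Fcgrt was counted sparsely. Under R848 it stood at 13.1 ± 4.69 CPM in the Zbtb32 cluster, 12.6 ± 2.41 in follicular-like and 8.94 ± 2.55 in marginal zone-like cells, which overlapped. Transitional-like (3.85 ± 2.01 CPM), cycling-like (3.40 ± 0.960) and activated-like cells (2.45 ± 0.922) formed a lower, overlapping group. Germinal center-like cells had 6 UMIs in 1293 cells and plasmablast-like cells 11 in 2137. No UMI was found in 331 cells of the Rag1 cluster, which allows a share of up to 0.906% of cells with a UMI, counting error only. Cells of the myeloid cluster, which express neutrophil genes such as S100a8 and Ly6g, had 137 raw CPM (CPM without TMM scaling) over both treatments (exact Poisson 95% interval 116 to 161, counting error only).

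**Figure D1:**
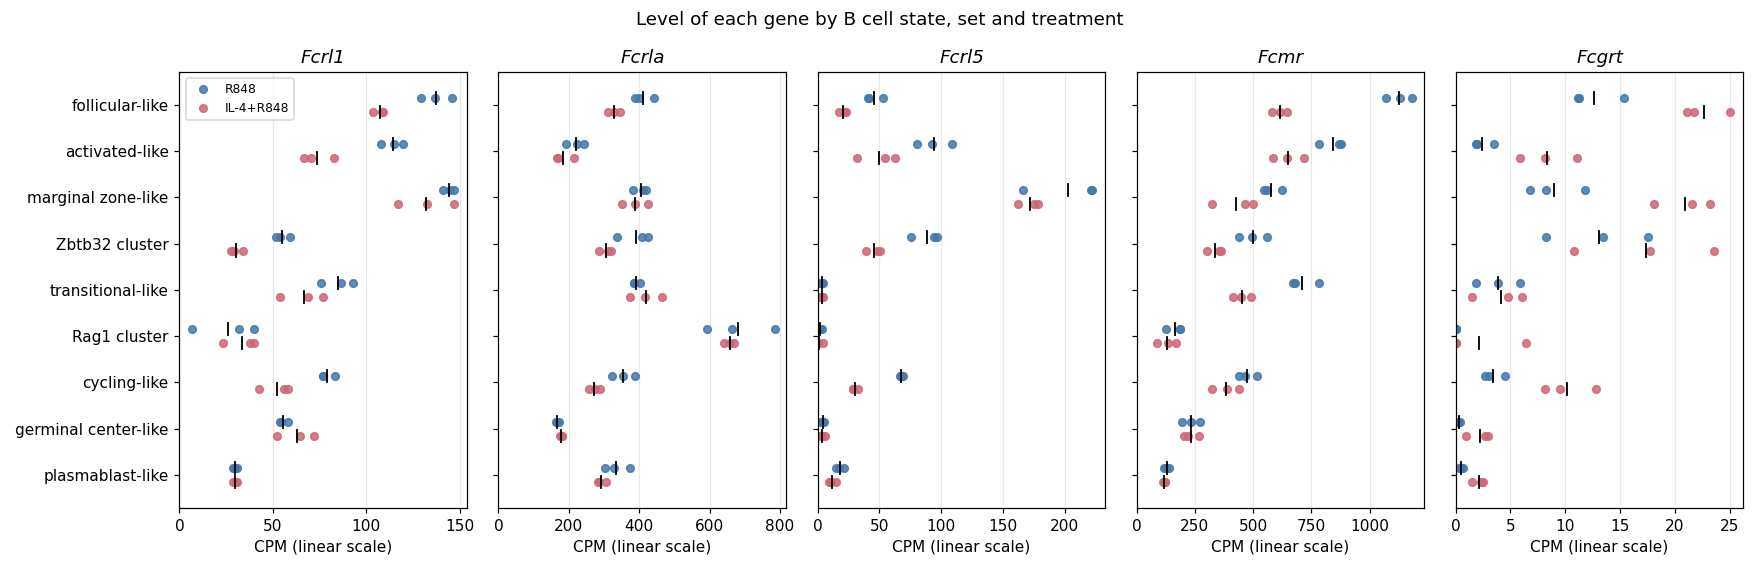
Level of each gene in CPM (linear scale, one scale per gene) in 9 B cell states, each point being 1 set and treatment and each black tick the mean of 3 sets. Fcmr under R848 is highest in follicular-like cells (1072 to 1181 CPM), Fcrl5 in marginal zone-like cells (166.3 to 221.8 CPM) and Fcrla in the Rag1 cluster (593.2 to 787.1 CPM).

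NK cell-like cells, which should lack most of these B cell genes, give 1 measure of the background. Their pooled level was 38.2 raw CPM for Fcmr (51 UMIs), 6.74 for Fcrla and for Fcrl1, and 9.74 for Fcrl5, of which 12 of 13 UMIs came from IL-4 cells of 1 set. Fcgrt had 1 UMI in 160 such cells. These values are raw CPM and can be set only beside raw CPM. In the largest plasmablast-like cluster, number 8 with 1096 R848 cells, Fcmr stood at 41.9 ± 5.99 raw CPM and Fcrl1 at 9.51 ± 1.85. Both lay within the 95% exact Poisson intervals of the NK cell-like levels (28.5 to 50.2 and 3.08 to 12.8). Cells of cluster 8 were deeper, with a median of 19698 UMIs over both treatments against 7139. Whether the counts in cluster 8 are background was not tested. Cluster 11, the next largest of that state, had 157 ± 8.81 raw CPM of Fcmr and 33.5 ± 0.747 of Fcrl1. Fcrla stood at 126 ± 4.95 raw CPM in cluster 8, above its NK cell-like level. Among 47 R848 NK cell-like cells none had an Fcrl5 UMI, which allows a share of up to 6.38%.

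Under IL-4, follicular-like cells had lower Fcmr and Fcrl5 and higher Fcgrt, with smaller falls of Fcrl1 and Fcrla. All 5 members passed the test (edgeR quasi-likelihood, Benjamini-Hochberg adjusted p under 0.05 over 11227 genes), where 15.8% of genes tested did. Of the genes tested 7.55% fell, as 4 members did, and 8.26% rose, as Fcgrt did. Transitional markers summed to 1432 to 1524 raw CPM under R848 and to 1727 to 1874 under IL-4+R848 in this class, with none of the 8 markers at 0, and their part in these results was not tested. Whether each set holds 1 mouse of each treatment is not said in the labels, so p-values measure the spread between sets.

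Fcmr stood at 1181, 1130 and 1072 CPM under R848 and at 646.5, 583 and 615.4 under IL-4+R848 in sets 1, 2 and 3. The groups did not overlap, and the highest IL-4 set was far below the lowest R848 set. The log2 fold change was -0.90 ± 0.06 (SE, adjusted p = 2.47e-06 by edgeR). It held in cluster 2 alone, which contains 748 R848 and 2663 IL-4 cells, at -0.66 (edgeR adjusted p = 3.93e-05), and over all singlet cells regardless of state at -0.35 (edgeR adjusted p = 0.0216). The IgM antibody, which reads the antibody class that the Fcmr protein binds, moved the other way on these cells, from a centred log ratio of -0.06 ± 0.12 to 0.70 ± 0.22 (SD, n = 3). Its part in the Fcmr result was not tested.

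Fcrl5 stood at 41.1, 41.86 and 53.29 CPM under R848 and at 22, 17.52 and 23.3 under IL-4+R848. Again no IL-4 set reached an R848 set. The log2 fold change was -1.14 ± 0.12 (edgeR adjusted p = 0.000125), but it was -0.60 without cluster 1 (edgeR adjusted p = 0.00908). Cluster 1, nearly all IL-4 cells, had 6.71 ± 0.779 raw CPM, against 28.0 ± 5.12 in the other IL-4 cluster, number 5. R848 cells of clusters 0 and 4 had 34.9 ± 7.42 and 58.6 ± 6.18. The few IL-4 cells of cluster 0, 389 in number, were not lower (35.9 ± 7.14), while those of cluster 4 had 40.2 ± 10.1.

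Fcgrt stood at 15.37, 11.24 and 11.14 CPM under R848 and at 25.02, 21.71 and 21.15 under IL-4+R848. All 3 IL-4 sets were above all R848 sets, and the log2 fold change was 0.83 ± 0.13 (edgeR adjusted p = 0.00123). Cluster 1 did not share the higher level (11.8 ± 0.265 raw CPM), while IL-4 cells of clusters 2 and 5 had 24.9 ± 2.76 and 26.2 ± 3.26. Over all singlet cells the log2 fold change was 1.35. The 7 monocyte or macrophage markers were summed in the same cells and gave 35.4 to 45.9 raw CPM under R848 and 13.2 to 17.2 under IL-4+R848, with Fcgr1 at 0 in both. Their part in the Fcgrt result was not tested. The neutrophil list gave at most 0.288 raw CPM in either treatment.

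Fcrl1 stood at 129.2, 136.7 and 146.1 CPM under R848 and at 109.2, 108.6 and 103.8 under IL-4+R848, a log2 fold change of -0.38 ± 0.06 (edgeR adjusted p = 0.00122). Fcrla stood at 388.4, 400.5 and 442 CPM and at 328.4, 312.4 and 345.6, a log2 fold change of -0.34 ± 0.06 (edgeR adjusted p = 0.00332). Neither pair of groups overlapped, but both calls were lost without cluster 1, of which 99.7% were IL-4 cells. Without it the log2 fold changes were -0.09 and -0.17 (edgeR adjusted p = 0.373 and 0.11). In cluster 2 alone they were -0.20 and -0.25 (edgeR adjusted p = 0.305 and 0.149). The sets there were still separate for Fcrl1 (128.5 to 133.1 raw CPM under R848, 104.4 to 109.7 under IL-4+R848). Those of Fcrla were too (337.2 to 374.8 and 262.5 to 297.9). In cluster 0 Fcrl1 was separate (124.4 to 133 and 75.59 to 86.35) and Fcrla overlapped, and in cluster 4 both overlapped. Cluster 1 had 66.5 ± 5.89 raw CPM of Fcrl1 and 244 ± 12.4 of Fcrla, below the other follicular-like clusters of either treatment.

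**Figure D2:**
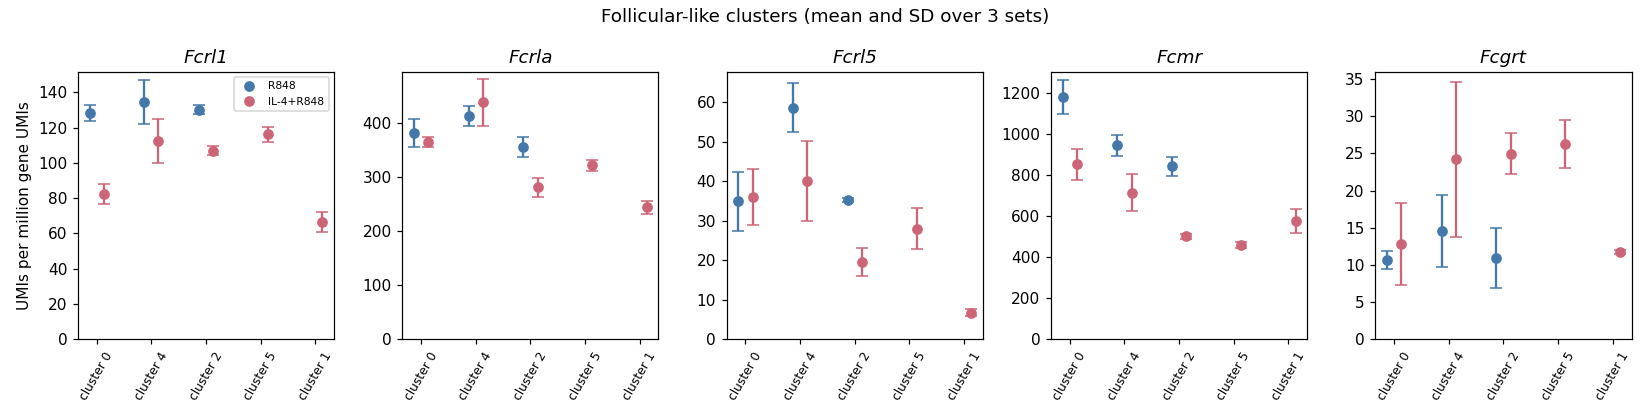
Raw CPM (linear scale) of each gene in the 5 follicular-like clusters by treatment, with the mean and SD over 3 sets; combinations with fewer than 3 sets are not drawn. Fcmr is lower under IL-4 in clusters 0, 4 and 2, which hold both treatments, and Fcrl5, Fcrl1 and Fcrla have their lowest values in cluster 1.

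The share of follicular-like cells with at least 1 Fcmr UMI showed the same order. After thinning every cell to 2000 UMIs, which left out 319 R848 and 258 IL-4 cells, it was 82.4% ± 2.22 under R848 and 57.2% ± 0.940 under IL-4+R848. Without thinning it was 93.8% and 82.3%, with median depths of 4357 and 5840 UMIs. An exact 2-sided permutation test over the sets gave p = 0.1, the smallest that 3 against 3 can give. NK cell-like cells had a UMI in 2 of 46 R848 cells and 3 of 110 IL-4 cells after the same thinning, at median depths of 6416 and 7437. For Fcrl5 the thinned share was 5.92% ± 0.947 and 2.80% ± 0.427, and 14.6% and 8.38% without thinning. Fcgrt was seen in 2.20% ± 0.212 and 3.54% ± 0.642 of thinned cells, and in 5.41% and 10.96% of cells without thinning. The sets of both groups were separate for Fcrl5 and Fcgrt as well, with the same p, but those of Fcgrt overlapped when cells were thinned to 1000 UMIs (exact permutation p = 0.4). For Fcrl1 (22.7% and 15.97%) and Fcrla (51.3% and 40.5%) the groups were separate after thinning and overlapped without it (exact permutation p = 0.5 for each).

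The other states were smaller and fewer members passed the test. Transitional-like cells are named for recent arrivals from bone marrow, on weak marker support. Of 3 members tested 1 was called in them, where 1.42% of genes were (0.87% higher and 0.552% lower). Fcmr fell there from 781.6, 679.2 and 670.1 CPM to 449, 411.9 and 490.2, without overlap (log2 fold change -0.61 ± 0.09, edgeR adjusted p = 0.00341, and 0.076 without set 2). Fcrl5 and Fcgrt were too low to be tested there. With clusters made without the genes called between treatments, a different set of cells, Fcrl5 (-1.69), Fcrl1 (-0.49) and Fcrla (-0.35) were also called (edgeR adjusted p = 0.0256, 0.0261 and 0.0431).

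In the Zbtb32 cluster 3 of 5 members were called, all lower, where 2.14% of genes were (1.52% higher and 0.625% lower). Fcrl1 fell from 54.08, 51.93 and 59.37 CPM to 27.51, 29.02 and 34.23 (log2 fold change -0.88 ± 0.13, edgeR adjusted p = 0.00833). Fcrl5 fell from 75.26, 96.67 and 93.96 CPM to 39.3, 50.93 and 47.75 (-0.94 ± 0.15, edgeR adjusted p = 0.00997). Fcmr fell from 493.5, 560 and 440.9 CPM to 352.1, 361.8 and 300.9 (-0.55 ± 0.11, edgeR adjusted p = 0.037). None of the 3 pairs of groups overlapped, yet these calls depended on single sets. Fcrl1 was lost without set 1 or set 2 (edgeR adjusted p = 0.0604 and 0.0821) and Fcrl5 without set 2 or set 3 (0.0585 and 0.101). Fcmr was lost without set 1, 2 or 3 (0.132, 0.192 and 0.102). Monocyte or macrophage markers also differed in this cluster, at 86.4 to 148.5 raw CPM under R848 and 25.0 to 65.2 under IL-4+R848, with C1qa and Fcgr1 at 0 in both. Plasmablast markers stood at 661.3 to 879.5 and 531.1 to 613.5 raw CPM, with none of 9 at 0. T cell markers stood at 9.15 to 20.4 and 3.88 to 7.62, with Cd3e, Cd8a and Il7r at 0 in both. The part of these lists in the 3 falls was not tested.

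In marginal zone-like cells only Fcgrt of the 5 members was called, where 1.08% of genes were (0.714% higher and 0.368% lower). It rose from 11.76, 8.255 and 6.801 CPM (151 UMIs in all) to 18.12, 23.21 and 21.54 (69 UMIs), a log2 fold change of 1.23 ± 0.25 (edgeR adjusted p = 0.0318). This call was lost without set 2 or set 3 (edgeR adjusted p = 0.383 and 0.12). The monocyte or macrophage markers summed to 16.7 to 22.02 raw CPM under R848 and 7.74 to 22.7 under IL-4+R848 in these cells. Fcmr had a log2 fold change of -0.39 ± 0.12 that did not pass (edgeR adjusted p = 0.247), although the groups did not overlap. It passed with no filter on low counts (-0.42, edgeR adjusted p = 0.000127) and with clusters made without called genes (-0.45, edgeR adjusted p = 0.027). Fcrl5, the gene that marks this state, stood at 166.3, 221.8 and 220.9 CPM under R848 and at 178.4, 174.9 and 162.5 under IL-4+R848, with overlapping groups and a log2 fold change of -0.19 ± 0.12. The state itself was smaller under IL-4+R848, 2.95% ± 0.273 of cells against 10.6% ± 2.99.

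In activated-like cells none of 4 members tested was called, where 0.749% of genes were (0.574% higher and 0.175% lower). Fcrl1 had a log2 fold change of -0.59 ± 0.13 (edgeR adjusted p = 0.0577), Fcrl5 of -0.91 ± 0.20 (0.0616) and Fcmr of -0.33 ± 0.09 (0.14), all without overlap of the groups. With the set as a block, Fcrl5 (-0.92, edgeR adjusted p = 0.0236) and Fcmr (-0.34, edgeR adjusted p = 0.0277) passed. The block raised the count of genes called from 60 to 102 here. With clusters made without called genes all 3 passed, Fcrl1 at -0.89, Fcrl5 at -1.64 and Fcmr at -0.38 (edgeR adjusted p = 0.000205, 1.52e-05 and 0.00538), as they did with no filter on low counts (0.00354, 4.51e-06 and 0.00496). Fcrl5 also passed by DESeq2 (DESeq2 adjusted p = 0.0326) and at clustering resolution 0.5 (edgeR adjusted p = 0.0484), and Fcrl1 with the 10-fold hashtag rule (edgeR adjusted p = 0.0313).

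In germinal center-like cells, where B cells mutate and select their receptors, none of 4 members tested was called (0.245% of genes were, with 0.163% higher and 0.0816% lower, 24 in number and 111 with the set as a block). Fcmr stood at 273.3, 234.7 and 196.7 CPM under R848 and at 221.6, 269.7 and 205.4 under IL-4+R848, the groups overlapping. In plasmablast-like cells edgeR called 0% of 10271 genes and none of the 4 members tested, with 523 genes at an unadjusted p under 0.05 and 36 called by DESeq2. Fcmr stood there at 117.8 to 140.9 CPM under R848 and at 113.5 to 123.4 under IL-4+R848. Its log2 fold change ranged from -0.479 to 0.005 over 11 alternatives and was called in none. Clusters of this state differed. Fcmr went from 157 ± 8.81 to 111 ± 10.03 raw CPM in cluster 11 and from 41.9 ± 5.99 to 58.8 ± 7.16 in cluster 8, each without overlap. In cluster 14 it stood at 59.55 ± 16.9 and 51.7 ± 8.89, with overlap. Changes within single clusters were not tested, and the R848 level of cluster 8 lay within the NK cell-like interval (28.5 to 50.2).

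**Figure D3:**
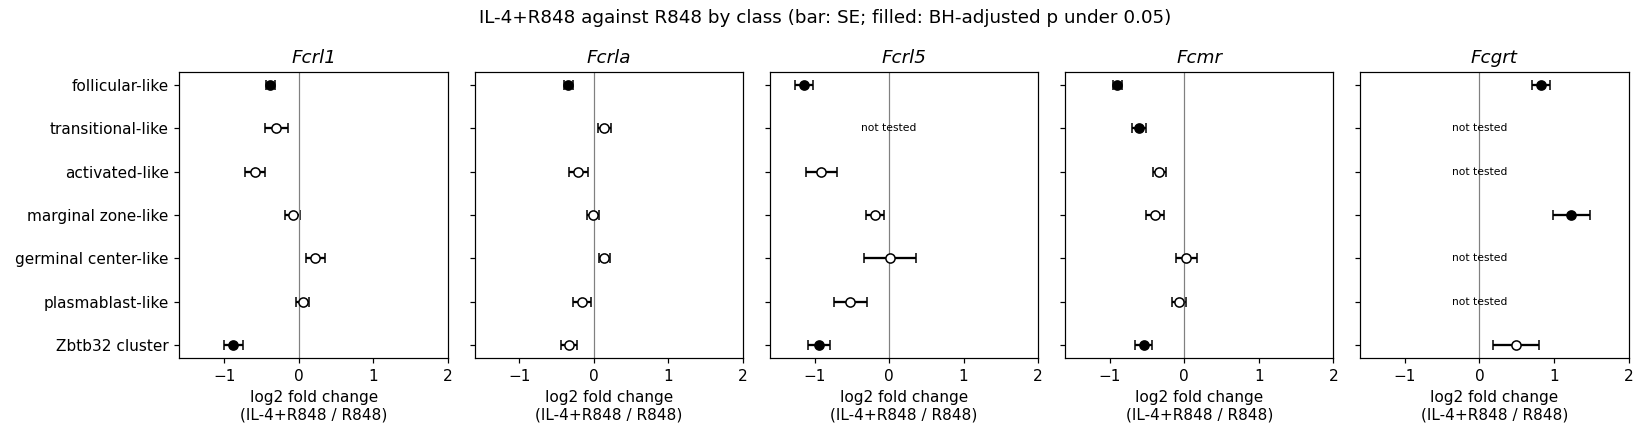
Log2 fold change of IL-4+R848 over R848 for each gene in 7 states, with its SE; filled points passed the edgeR test at an adjusted p under 0.05. All 5 genes are filled in follicular-like cells, Fcmr also in transitional-like cells and the Zbtb32 cluster, and none in activated-like, germinal center-like or plasmablast-like cells.

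Differences of the IL-4 effect between states were tested directly as interactions in 1 edgeR fit over all states. The Fcmr effect was less negative than in follicular-like cells by 0.92 ± 0.16 on the log2 scale in germinal center-like cells (edgeR adjusted p = 0.000485). In plasmablast-like cells, whose clusters 8 and 11 went opposite ways (not tested), it was less negative by 0.82 ± 0.16 (edgeR adjusted p = 0.00178). Genes with such a difference were 3.22% and 2.29% of 10543. Fcrl1 differed in germinal center-like cells by 0.58 ± 0.14 (edgeR adjusted p = 0.0118), and Fcrl5 in marginal zone-like cells by 0.95 ± 0.24 (edgeR adjusted p = 0.0486), where 0.863% of genes differed. Without the set as a block the last call was lost (edgeR adjusted p = 0.0696). Fcgrt differed in germinal center-like cells by 2.09 ± 0.57 (edgeR adjusted p = 0.0373), from 6 R848 and 19 IL-4 UMIs, and this was lost without the block (0.1). No member differed between follicular-like cells and transitional-like, activated-like or Zbtb32 cluster cells, where 1.04%, 0.304% and 0.266% of genes did. For Fcmr these differences were 0.27 ± 0.16, 0.50 ± 0.16 and 0.34 ± 0.16 (edgeR adjusted p = 0.614, 0.24 and 0.601).

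Surface antibodies allowed a test of state that does not rest on RNA. Cells were ranked within set and treatment by the centred log ratio of each antibody, high and low being the top and bottom 20%, or the top 5% for CD138, CD95, GL7 and CD93. Where CD138 high cells are left out of the CD21 high CD23 low gate, the cells left out are the top 20% for CD138. Counts of each gate were summed per set and tested with the set as a block. CPM of a gate come from its own fit.

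Cells with high CD21 and low CD23, the surface pattern of marginal zone cells, carried far more Fcrl5 than CD23 high cells. Without CD138 high cells, here the top 20% for CD138, some of which shared the pattern, 75.5% of the gate under R848 was marginal zone-like. Fcrl5 stood at 229.5, 233.1 and 251.2 CPM in the gate and at 28.2, 32.72 and 42.8 in CD23 high cells. The log2 difference was 2.80 ± 0.11 (edgeR adjusted p = 2.51e-05, where 11.8% of genes passed). Under IL-4+R848 it was 4.08 ± 0.16 (edgeR adjusted p = 2.04e-06, 6.5% of genes), with 150.5 to 160.4 CPM in the gate and 7.777 to 11.59 in CD23 high cells. The gate was then 47.2% marginal zone-like and 32.1% follicular-like. Fcmr was lower in the gate, at 340.4, 339.1 and 305.9 CPM against 1031, 913.9 and 927.7 under R848 (log2 difference -1.54 ± 0.08, edgeR adjusted p = 4.3e-05). Fcgrt was lower by -1.45 ± 0.34 under R848 (edgeR adjusted p = 0.0307), which was lost without set 1 (0.0738) or set 2 (0.125). Fcrl1 and Fcrla did not pass under R848 (-0.22 ± 0.09 and 0.03 ± 0.11) and were higher in the gate under IL-4+R848 (0.57 ± 0.15 and 0.65 ± 0.10, edgeR adjusted p = 0.0449 and 0.00364). With the CD138 high cells kept in, Fcrl5 was higher by 2.37 ± 0.13 under R848 and by 3.37 ± 0.15 under IL-4+R848, where 24.2% and 28.7% of genes passed. Fcrl1 was lower in that gate under R848 (-0.46 ± 0.10, edgeR adjusted p = 0.0197, lost without set 1 or set 3 at 0.0581 and 0.0818 and in a stricter gate at 0.386) and differed by 0.01 ± 0.11 under IL-4+R848 (edgeR adjusted p = 0.941).

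All 5 members were higher in IgD high than in IgD low cells under R848, where 65.2% of genes passed. IgD is carried by naive B cells and lost on switching, and the IgD low gate was 36.3% plasmablast-like. Fcmr stood at 900.8, 806.3 and 791.5 CPM in IgD high and at 179.1, 174 and 130.9 in IgD low cells (log2 difference 2.38 ± 0.11, edgeR adjusted p = 1.11e-05). Fcgrt (2.07 ± 0.17), Fcrl1 (1.82 ± 0.11), Fcrl5 (0.73 ± 0.13) and Fcrla (0.61 ± 0.11) followed. Under IL-4+R848, Fcrl5 showed no such order, at 13.37 to 21.21 CPM in IgD high and 16.99 to 24.9 in IgD low cells (-0.26 ± 0.22, edgeR adjusted p = 0.363), where 52.4% of genes passed.

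CD138 high cells, of which 96.8% were plasmablast-like under R848, had lower Fcrl5, Fcmr, Fcrl1 and Fcgrt, where 62.2% of genes passed. Fcrl5 stood at 3.962, 4.348 and 4.135 CPM in the gate and at 39.62 to 41.26 in the rest (log2 difference -3.28 ± 0.08, edgeR adjusted p = 0.00011). Fcmr stood at 80.63, 75.66 and 39.18 CPM against 429.4 to 471.1 (-2.86 ± 0.22, edgeR adjusted p = 0.000397). Fcrla was the exception, at 212 ± 19.3 CPM against 231 in the rest (-0.13 ± 0.10, edgeR adjusted p = 0.333). The same held under IL-4+R848, where 56.5% of genes passed and Fcrla differed by -0.05 ± 0.11 (edgeR adjusted p = 0.719).

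GL7 high cells, the top 5% for a germinal center glycan, were 73.0% germinal center-like under R848 and had less of all 5 members, where 64.7% of genes passed. Fcrl5 fell to 5.085, 6.12 and 5.488 CPM against 56.07 to 58.41 in the rest (log2 difference -3.36 ± 0.08), and Fcgrt to 0.3767, 0.1855 and 0.5678 against 6.047 to 8.918 (-4.23 ± 0.32). Fcrl1 and Fcrla were lower by -0.93 ± 0.07 and -0.92 ± 0.07. Fcmr was lower by -1.65 ± 0.08 under R848 and by -0.43 ± 0.09 under IL-4+R848 (edgeR adjusted p = 1.68e-05 and 0.00687), but the gate was only 34.6% germinal center-like under IL-4+R848, with 32.8% follicular-like cells, and 44.1% of genes passed there.

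CD95 high cells were mixed, 30.6% germinal center-like and 21.2% Zbtb32 cluster under R848. Fcmr was lower in them by -1.18 ± 0.08 (edgeR adjusted p = 0.00264, 22.3% of genes), and Fcrl5 did not pass (-0.22 ± 0.09, edgeR adjusted p = 0.128). Fcrl1 (-0.72 ± 0.07), Fcrla (-0.52 ± 0.10) and Fcgrt (-0.76 ± 0.18) were also lower (edgeR adjusted p = 0.00454, 0.022 and 0.0374). Under IL-4+R848, where 1.67% of genes passed and the gate was 37.4% follicular-like, Fcmr differed by -0.63 ± 0.13 (edgeR adjusted p = 0.0763) and only Fcrl1 of the 5 passed (-0.65 ± 0.10, edgeR adjusted p = 0.0495). CD93 high cells, CD93 being an antigen of immature B cells, had lower Fcrl5 (-1.30 ± 0.12, edgeR adjusted p = 0.00017) and Fcrl1 (-0.76 ± 0.11, edgeR adjusted p = 0.0017) under R848, where 23.9% of genes passed. Fcrla and Fcmr did not pass in that gate (0.15 ± 0.10 and -0.15 ± 0.09). Of it, 30.5% was transitional-like and 29.5% follicular-like. Under IL-4+R848 Fcrl5 was again lower (-2.46 ± 0.33, edgeR adjusted p = 0.00523), where 7.54% of genes passed.

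**Figure D4:**
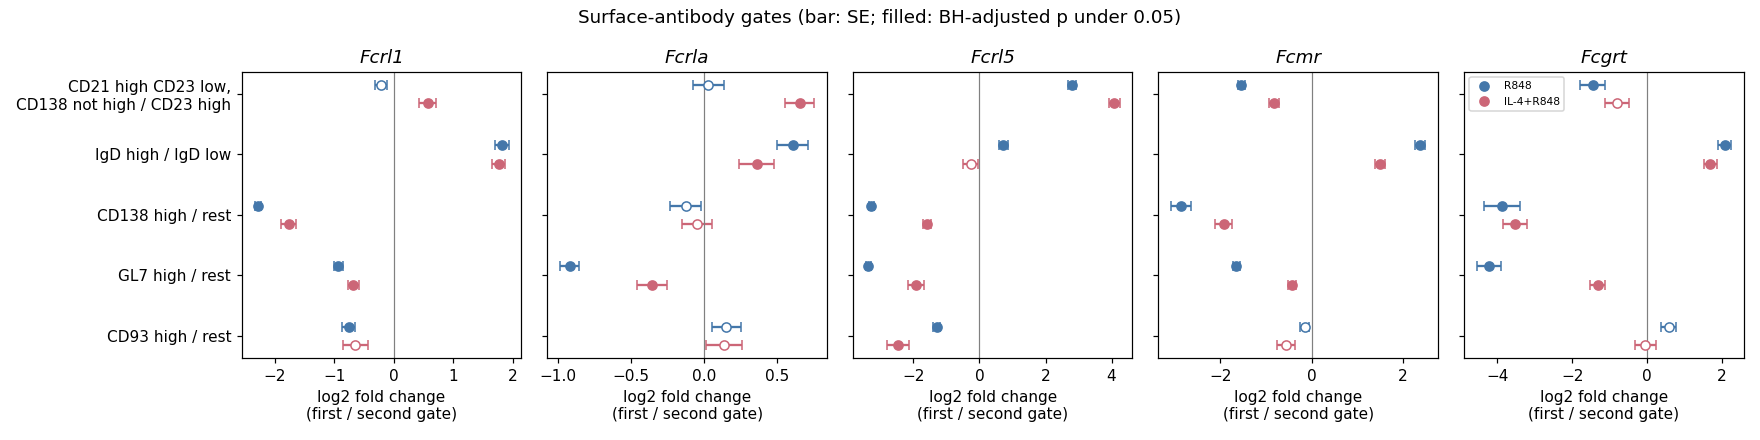
Log2 difference of each gene between antibody gates (first over second) in R848 and IL-4+R848 cells, with its SE; filled points passed the edgeR test at an adjusted p under 0.05. Fcrl5 is higher in CD21 high CD23 low cells (2.80 and 4.08), and Fcrla is the gene that is not filled for CD138.

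A list of 30 other Fc receptors, B cell receptor coreceptors and signalling partners moved in both directions in follicular-like cells. Of 23 tested, 6 rose and 4 fell, with a median log2 fold change of -0.02 against 0.00 over all genes tested. Pigr, the transporter of polymeric IgA and IgM, fell by 1.21 on the log2 scale, Cr2 (CD21) by 1.09, and Cd72, an inhibitory coreceptor, by 0.67. Fcer1g, the signalling chain shared by several Fc receptors, rose by 0.78 ± 0.19 (edgeR adjusted p = 0.0189). Of the named partners, B2m, the light chain of the neonatal Fc receptor, rose by 0.25 ± 0.07 (edgeR adjusted p = 0.0264). Fcgr2b, the inhibitory IgG receptor of B cells, had -0.32 ± 0.12 (edgeR adjusted p = 0.101), and Fcer2a (CD23) 0.24 ± 0.10 (0.144). At the surface, the centred log ratio of CD21 went from 1.37 ± 0.139 to 0.45 ± 0.0918 and that of CD23 from 2.55 ± 0.0737 to 3.02 ± 0.0183 (SD, n = 3).

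In the other states fewer of the list passed. In transitional-like cells 2 rose and 2 fell of 20 tested (median -0.14 against 0.00 over all genes): Cr2 (-2.12) and Cd72 (-0.48) fell, B2m (0.36) and Cd79b (0.25) rose. In activated-like cells Cr2 fell (-1.14) and Cd79b rose (0.47) of 20 (median 0.06 against 0.01). In marginal zone-like cells Cr2 (-0.99) and Cd72 (-0.65) fell and Cd79b rose (0.34) of 21 (median 0.02 against 0.00). In the Zbtb32 cluster Cd72 (-0.99) and Fcgr2b (-0.54 ± 0.11, edgeR adjusted p = 0.0403) fell of 21 (median -0.15 against 0.00). None of 21 passed in germinal center-like (median -0.02) or plasmablast-like cells (0.03, against 0.00 over all genes in both). Fcer2a passed in no state, with log2 fold changes from -0.78 in transitional-like to 1.00 in plasmablast-like cells. Fcgr2b passed in the Zbtb32 cluster only of the 7 states, and B2m in follicular-like and transitional-like cells.

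The genes most like each member were ranked by Pearson's r of mean log2 CPM over 14 points, 7 states in both treatments, among 7468 genes. The points share their libraries and normalization, so r is a description. For Fcmr they were Pi4ka (0.95), Gm15848 (0.95) and Colgalt1 (0.94). For Fcrl5 they were Chd7 (0.94), Fcgr2b (0.94) and Hilpda (0.93). For Fcrla they were Cdkn1b (0.98), Myo18a (0.95) and Zdhhc20 (0.95). For Fcrl1 they were Tsc22d2 (0.94), Acsf2 (0.93) and Plk2 (0.92), and for Fcgrt Ptpn18, Dipk1a and Macf1 (all 0.94).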

How the data were processed

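Spleen B cells of BXD2 mice were sequenced as 3 libraries by 10x 5′ chemistry, per the labels' protocols. Each deposited matrix is the authors' unnormalised table of UMI counts, written by Cell Ranger 6.0.1 per the file headers. The genome build was mm10 per the submitters' processing notes. Seurat 4.1.3 is named in them too, with no role given. Barcodes were already chosen as cells. Treatment came from the hashtag feature names: a cell needed at least 64 UMIs of 1 hashtag and 4-fold the other. Cells with fewer than 500 genes, or with 10% or more mitochondrial UMIs, were dropped.

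Log counts scaled to 10000 per cell were clustered on 2000 variable genes (30 components, 15 neighbours, Leiden resolution 1). Left out of this step were the 5 genes, the list of 30 partners, Ig and T cell receptor variable genes, and genes of mitochondria and ribosomes. Clusters were assigned to states by marker lists of B cell states and of T, NK and myeloid cells, with the assignment made after the clusters were seen. The members and lists were chosen with earlier results of these data known, and the GGAAGT sequence and the CD93, GL7 and CD138-free gates after the data were seen. All members are named in every state, and of the partner list up to 4 passing genes with the largest change plus Fcgr2b, Fcer2a and B2m.

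Counts were summed per set, treatment and state (at least 30 cells) and tested by quasi-likelihood in edgeR 4.0.16 under R 4.3.3, after filterByExpr and TMM scaling, checked on simulated data, with Benjamini-Hochberg adjustment over all genes tested. In the simulated data, 73.1% of 1.5-fold and 94% of 2-fold changes were called in follicular-like cells. In the smaller marginal zone-like state 37.3% and 68.7% were, so a gene that was not called there may still differ. DESeq2 1.42.0 was an alternative. The main tests of IL-4 within a state were fitted on treatment only, and the set as a block was an alternative. Interactions and gates were fitted with the set as a block. Both treatments of a set share a library, which pairs them. In follicular-like cells, the deviations of both sums of a set from the treatment means correlated at 0.464, 0.368 and 0.362 over 2401 genes. In other states some of these correlations were under 0.1. Python 3.11.15, SciPy 1.17.1, leidenalg 0.10.2 and matplotlib 3.10.9 were also used. Sets differed in depth, with medians of 5480, 6580 and 4957 UMIs per barcode in sets 1, 2 and 3. Low genes such as Fcgrt are limited by their few UMIs. A 5′ library counts molecules, but levels of different genes were not compared.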

Additional observations from a re-analysis of the deposited data

Results flagged for a closer look

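The IL-4 effect differed between states, by the test of the difference itself, for 5 combinations of gene and state. Of 10543 genes, 3.22% differed in germinal center-like, 2.29% in plasmablast-like and 0.863% in marginal zone-like cells. Relative to follicular-like cells, the effect on Fcmr was higher by 0.915 (log2) in germinal center-like cells. It was higher by 0.82 in plasmablast-like cells, whose clusters 8 and 11 went opposite ways (not tested). The effect on Fcrl1 was higher by 0.58 in germinal center-like cells, and that on Fcrl5 by 0.952 in marginal zone-like cells. That on Fcgrt was higher by 2.085 in germinal center-like cells, from the few UMIs given above. Without the set as a block, the calls of Fcrl5 in marginal zone-like cells and of Fcgrt were lost. With states drawn from clusters made without the genes called between treatments, a setting chosen after seeing the data, the 5 differences were 0.84, 0.717, 0.544, 0.852 and 1.935, with edgeR adjusted p = 0.000143, 0.00128, 0.0316, 0.0419 and 0.0953. In that setting Fcrl5 also differed in germinal center-like cells (1.267, edgeR adjusted p = 0.0229).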

How the results depend on the processing

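Of 714 recomputed values under other settings, 590 kept their direction and their side of the threshold, 43 lost a call, 18 gained one, 34 changed sign and 29 counts moved by over 1.5 times; the cause was not tested. In follicular-like cells the log2 fold change ranged from -0.94 to -0.66 for Fcmr, from -1.42 to -0.60 for Fcrl5 and from 0.78 to 1.28 for Fcgrt, all called. Over all singlet cells these genes were at -0.35, -1.09 and 1.35, and in cells in the upper 50% for IgD at -0.67, -1.45 and 1.12, also called. Fcrl1 and Fcrla were called in 11 of these 15 alternatives, and lost also over all singlet cells (edgeR adjusted p = 0.364 and 0.33) and in cells in the upper 50% for IgD (0.0523 and 0.0853). Resolution 0.5 and clusters without genes called between treatments ended the calls of Fcmr in the Zbtb32 cluster (edgeR adjusted p = 0.0624 and 0.0795) and of Fcgrt in marginal zone-like cells (0.0558 and 0.0698), and a stricter gate that of Fcgrt in CD21 high CD23 low cells (0.09). With no filter on low counts Fcgrt passed in germinal center-like cells (2.923, edgeR adjusted p = 0.0215).

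The replicate block moved the count of genes called from 116 to 218 in transitional-like, from 60 to 102 in activated-like and from 24 to 111 in germinal center-like cells, and apart from Fcrl5 and Fcmr in activated-like cells it changed no call of a member. Leaving out 1 set at a time gave 860 to 1282 genes in follicular-like cells against 1775, with the lowest without set 2, 39 to 96 in transitional-like (lowest without set 2), 31 to 55 in activated-like (lowest without set 1), 50 to 105 in marginal zone-like against 100 (lowest without set 2), 10 to 21 in germinal center-like (lowest without set 2), 51 to 143 in the Zbtb32 cluster against 185 (lowest without set 3) and 1 to 4 in plasmablast-like cells. Cluster 2 alone gave 277 and the IgD gate 1157 genes. With no filter on low counts there were 357 in transitional-like, 259 in activated-like, 312 in marginal zone-like, 184 in germinal center-like, 19 in plasmablast-like cells and 426 in the Zbtb32 cluster. DESeq2 called 82 in germinal center-like and 36 in plasmablast-like cells, and a 10-fold hashtag rule 9 in germinal center-like cells. Clusters made without genes called between treatments gave 745 in transitional-like and 574 in activated-like cells.

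The sign changes concerned values that were not called as reported, except Fcrl1 in the CD21 high CD23 low gate and Fcrl5 in the IgD gate, and 2 of them were calls the other way. Fcrla in transitional-like cells was -0.351 (edgeR adjusted p = 0.0431) with clusters made without called genes, and Fcrl1 in the CD21 high CD23 low gate without CD138 high cells was 0.571 in IL-4 cells (edgeR adjusted p = 0.0449). In marginal zone-like cells, Fcrl1 was 0.011 (resolution 0.5) and 0.017 (clusters without called genes), and Fcrla 0.11 (resolution 0.5) and -0.052 to 0.008 with 1 set left out. In germinal center-like cells the 10-fold hashtag rule gave -0.01 for Fcrla, -0.983 for Fcrl5 and -0.166 for Fcmr. Fcrl5 there was -0.502 to 0.322 with 1 set left out, -0.007 by DESeq2, -0.003 unfiltered, -0.206 at resolution 0.5 and -0.009 without called genes, and Fcmr -0.104 to 0.197 with 1 set left out. In plasmablast-like cells Fcrl1 was -0.276 with the 10-fold rule and Fcmr -0.12 to 0.005 with 1 set left out. In IL-4 cells the gate differences were 0.014 for Fcrl1 (CD21 high CD23 low), -0.261 for Fcrl5 (IgD), 0.759 for Fcrl5 (CD95) and -0.045 for Fcgrt (CD93). With 1 set left out, Fcrla differed by -0.037 to 0.15 and by -0.098 to 0.136 in the CD21 gates, with and without CD138 high cells, and it differed by -0.166 in a stricter CD93 gate. Differences of the IL-4 effect from follicular-like cells on clusters without called genes were -0.173 (Fcrl1), -0.041 (Fcrla), -0.425 (Fcrl5) and -0.158 (Fcmr) in transitional-like and -0.364 (Fcrl5) and -0.144 (Fcgrt) in activated-like cells. The Fcmr share of cells differed by 3.224 percentage points in germinal center-like cells unthinned, and by 0.04791 (thinned to 1000 UMIs) and 4.445 (unthinned) in plasmablast-like cells.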
